A study of Caenorhabditis elegans with 6 samples.

Results

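The data described here are the transcript levels of 9 intestinal and lysosomal protease genes of C. elegans: the cathepsin B-like genes cpr-1, cpr-3, cpr-4, cpr-5 and cpr-6, the cathepsin L gene cpl-1, and the aspartyl protease genes asp-1, asp-3 and asp-4. They were chosen by name as a set of gut and lysosomal proteases, and all 9 were found among the 46756 genes of the deposited count table and among the 18428 genes tested. RNA was taken from whole hermaphrodites of strain ACH93 on adulthood day 2. This strain is wild type in background and carries a red RPN-5 proteasome reporter and a green mitochondrial outer membrane reporter, both driven by the myo-3 promoter in the muscles and not in the intestine. Worms were grown on OP50 bacteria either as solitary animals (1 worm per plate) or as a population of 10 worms per plate, with 3 libraries of each condition. Solitary worms served as the reference, and the comparison asks which transcripts differ when hermaphrodites grow in company. The number of worms pooled into a library was not given in the sources used here. Because whole animals were sequenced, a change in the share of RNA that a tissue contributes and a change of a transcript within that tissue cannot be told apart.

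The C. elegans intestine takes up and digests bacteria, and its cells hold many lysosomes and lysosome-related gut granules. Proteases of both classes are made as inactive precursors that mature in acidic compartments or are secreted into the gut lumen. Cysteine cathepsins cut peptide bonds with a catalytic cysteine, while aspartyl proteases, the class of pepsin and cathepsin D, use a pair of aspartates. The same lysosomal enzymes also break down yolk, engulfed cells and the cell's own components.

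Of the 9 genes, 5 cathepsin B-like genes and cpl-1 make up the cysteine proteases, and asp-1, asp-3 and asp-4 the aspartyl proteases. The annotation of WBcel235 places 6 of them on chromosome V and 3 on chromosome X, each as a protein-coding gene. cpr-1 (WBGene00000781) lies on V from 11975551 to 11976756, cpr-3 (WBGene00000783) from 15296834 to 15298700, cpr-4 (WBGene00000784) from 6614674 to 6615851 and cpr-5 (WBGene00000785) from 1132598 to 1134036. cpl-1 (WBGene00000776) lies on V from 16592572 to 16595346 and asp-1 (WBGene00000214) from 19049562 to 19050752. On X, cpr-6 (WBGene00000786) spans 6607207 to 6609045, asp-3 (WBGene00000216) 6791064 to 6792709 and asp-4 (WBGene00000217) 13218985 to 13221462. The gene structures are compact, from the single exon of asp-1 to the 8 exons of cpr-6, with exonic lengths between 1078 and 1462 nucleotides. Their coding sequences hold from 329 codons in cpr-1 to 444 in asp-4, stop codon excluded. Exons of asp-4 share 33 bases with R12H7.4 on the opposite strand, which held 2 to 9 counts per library, and cpr-4 shares 21 bases with a piRNA gene that held 0 counts.

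The genes were abundant. They held between 4461 and 73719 counts in a single library, out of totals of 55176436 to 62794403, so that counting error was at most 1.497% for any one value. Reads carry no molecular identifiers, and this figure covers counting error only. Levels below are CPM, the counts of a gene relative to the library total, scaled by edgeR's TMM factors. Together the 9 genes took 0.592% of all counts in solitary worms (0.572% to 0.626% over the libraries) and 0.583% in 10-worm populations (0.562% to 0.595%). Their summed level was 5984 ± 316 CPM in solitary worms and 5779 ± 275 CPM in 10-worm populations (SD, n = 3 each), and the ranges of both conditions overlapped. Counts of any pair of replicates differed beyond sampling noise. Solitary replicates 1 and 2 were the closest pair (chi-square per degree of freedom 5.93), whereas solitary replicate 3 stood apart from both (19.6 and 23.1), and the pairs of the other condition lay between 12.7 and 17.1. Results that rest on solitary replicate 3 are therefore given with and without it. The fit without it keeps the closest pair of all as its only solitary libraries. In that fit 2.21% of all tested genes had an adjusted p under 0.05 in edgeR's quasi-likelihood test, against 0.239% with all 6 libraries.

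None of the 9 protease genes passed the test for the growth condition (edgeR's quasi-likelihood test, p adjusted by Benjamini-Hochberg over all tested genes). An adjusted p under 0.05 was reached by 0 of the 9, beside 0.239% of all tested genes, and an unadjusted p under 0.05 by 0, beside 11.9%. The added requirement of an absolute log2 fold change above 1 left 0 of the 9, beside 0.0109% of all tested genes. DESeq2's Wald test also gave an adjusted p under 0.05 for 0 of the 9 (2.28% of all tested genes), and an unadjusted p under 0.05 for 1, asp-1 (10.3%). Point estimates in 10-worm populations were lower for 6 genes and higher for 3, beside 9107 lower and 9321 higher over all tested genes. The median log2 fold change of the 9 was -0.07, beside 0.00 over all 18428 tested genes and -0.02 over the 1956 genes of the same range of exonic lengths with a mean count of at least 100. Only for cpr-6 did the conditions not overlap, 1 gene of 9, where 18.3% of all tested genes have conditions that do not overlap (8.51% with the 10-worm populations higher and 9.83% with them lower).

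**Figure D1:**
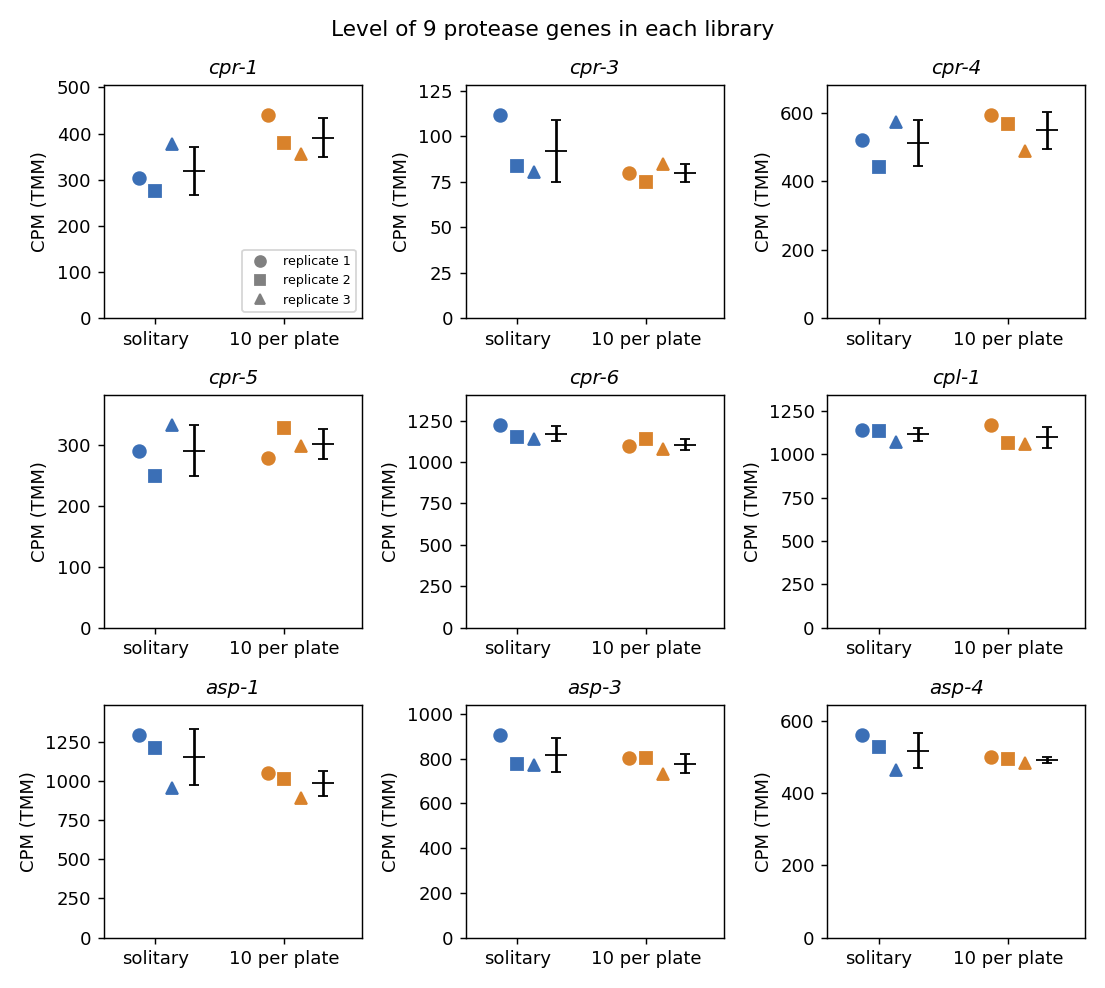
CPM (TMM-scaled, y axis, from 0) of each protease gene in every library, solitary worms in blue and 10-worm populations in orange, with marker shape giving the replicate number and the black bar the mean ± SD of 3 libraries. The conditions overlap for every gene but cpr-6, whose lowest solitary library (1141 CPM) lies just above the highest 10-worm library (1140.2 CPM).

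cpr-1 encodes a cathepsin B-like protease first described as a gut-specific cysteine protease. It measured 305, 275 and 377 CPM in the solitary libraries and 439.6, 379 and 356 CPM in the 10-worm libraries. Solitary replicates 1 and 2 were the lowest of all 6, and solitary replicate 3 fell among the libraries of the other condition. Its log2 fold change of 0.29 (standard error 0.15) was the largest of the 9 in size, with a 95% interval from -0.08 to 0.67 and an adjusted p of 0.520 in edgeR's quasi-likelihood test. On the linear scale this interval runs from -5.14% to 58.6%. Without solitary replicate 2 the log2 fold change was 0.19, and without solitary replicate 3 it was 0.43 (adjusted p = 0.101 in edgeR's quasi-likelihood test).

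cpr-4 encodes a cathepsin B-like protease known to be secreted, for instance by irradiated worms. Its levels were 519.9, 439.9 and 573 CPM in solitary worms and 592, 566 and 488 CPM in 10-worm populations. The conditions overlapped widely, with solitary replicate 2 lowest and replicate 1 of the other condition highest (log2 fold change 0.10, standard error 0.11, 95% interval -0.18 to 0.38, adjusted p = 0.797 in edgeR's quasi-likelihood test). Without solitary replicate 2 it was 0.0011 and without solitary replicate 3 it was 0.19. Without replicates 1 and 3 of the 10-worm populations in turn it was 0.045 and 0.18.

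cpr-5, another cathepsin B-like gene of the intestine, measured 291, 249.6 and 333 CPM in solitary worms and 279.8, 329 and 299 CPM in 10-worm populations. The solitary libraries spanned the whole range of the other condition (log2 fold change 0.05, standard error 0.12, 95% interval -0.23 to 0.34, adjusted p = 0.902 in edgeR's quasi-likelihood test). Its direction was not stable: without solitary replicate 2 the log2 fold change was -0.049, without replicate 2 of the 10-worm populations it was -0.0091, and without solitary replicate 3 it was 0.16.

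cpr-3, also a cathepsin B-like gene, was the least abundant member. It measured 112, 83.9 and 80.1 CPM in solitary worms and 79.9, 75.0 and 84.7 CPM in 10-worm populations. Solitary replicate 1 stood above the other 5 libraries, which lay between 75.0 and 84.7 CPM. The log2 fold change of -0.20 (standard error 0.14, 95% interval -0.57 to 0.17, adjusted p = 0.668 in edgeR's quasi-likelihood test) became -0.04 without solitary replicate 1.

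cpr-6 is the most abundant of the 5 cathepsin B-like genes. Its levels were 1222, 1150.1 and 1141 CPM in solitary worms and 1096, 1140.2 and 1079.7 CPM in 10-worm populations. All 3 solitary libraries lay above the other 3, by the narrowest of margins, and 9.83% of all tested genes share that order. The log2 fold change was -0.08 (standard error 0.05, 95% interval -0.19 to 0.02, adjusted p = 0.544 in edgeR's quasi-likelihood test), so the interval spans a change from -12.3% to 1.59%.

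cpl-1 encodes cathepsin L, which is needed for embryonic development and the processing of yolk. It measured 1138, 1134 and 1068 CPM in solitary worms and 1167, 1065 and 1058 CPM in 10-worm populations. The conditions overlapped, and the log2 fold change of -0.02 (standard error 0.05, 95% interval -0.14 to 0.10, adjusted p = 0.916 in edgeR's quasi-likelihood test) was the smallest of the 9 in size. Its interval spans -9.09% to 6.81%, and its direction flipped to 0.0064 when total counts replaced TMM scaling.

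asp-1 encodes an aspartyl protease made in intestinal cells. It measured 1292, 1210.2 and 954 CPM in the solitary libraries and 1047, 1012 and 892 CPM in 10-worm populations. Solitary replicates 1 and 2 were above all other libraries, whereas solitary replicate 3 was lower than 2 of the 3 libraries of the other condition. The log2 fold change was -0.23 (standard error 0.12, 95% interval -0.52 to 0.07, adjusted p = 0.541 in edgeR's quasi-likelihood test). Without solitary replicate 3 it was -0.35 (standard error 0.07) and passed the test (adjusted p = 0.0284 in edgeR's quasi-likelihood test), in a fit in which 2.21% of all tested genes passed and 1.52% passed as lower in 10-worm populations. The adjusted p of asp-1 ranged from 0.162 to 0.792 over the alternatives that kept all 6 libraries, and without each of the other 5 libraries in turn it was above 0.05. Without solitary replicate 1 the log2 fold change was -0.14.

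asp-3 and asp-4 encode cathepsin D-like proteases, both known to be needed for the death of neurons by necrosis. asp-3 measured 905, 774 and 770.3 CPM in solitary worms and 801, 802 and 731 CPM in 10-worm populations, so that 2 of the solitary libraries fell within the range of the other condition. asp-4 measured 562, 527 and 465 CPM in solitary worms and 500.4, 496 and 483 CPM in 10-worm populations, with solitary replicate 3 the lowest of all 6. Both had a log2 fold change of -0.07, with a 95% interval of -0.22 to 0.08 for asp-3 and -0.21 to 0.07 for asp-4 (standard errors 0.07 and 0.06, adjusted p = 0.750 and 0.717 in edgeR's quasi-likelihood test). asp-3 turned to 0.0074 without solitary replicate 1, the library that held its highest value, and was -0.11 without solitary replicate 3. asp-4 was at -0.14 without solitary replicate 3 (adjusted p = 0.145 in edgeR's quasi-likelihood test) and at -0.012 without solitary replicate 1.

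**Figure D2:**
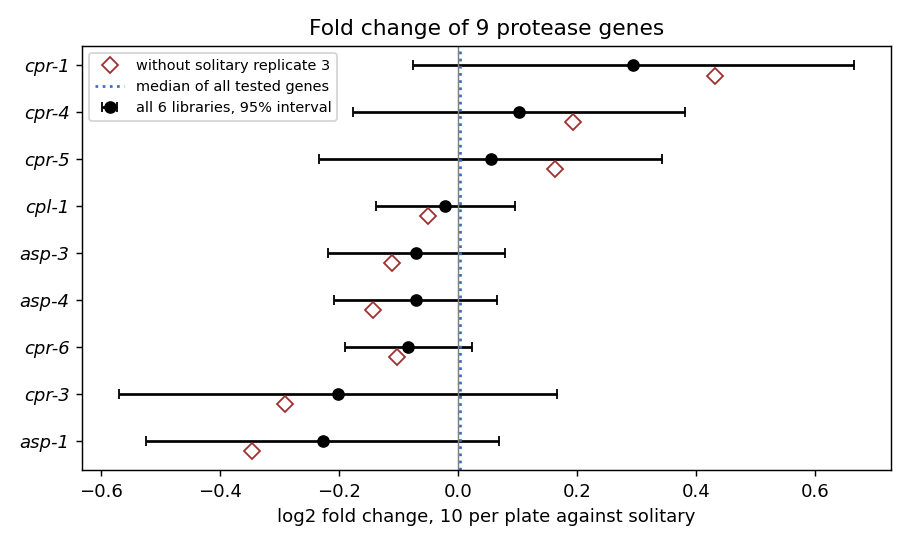
Log2 fold change (x axis, 10-worm populations against solitary worms) of each protease gene (y axis) from all 6 libraries with its 95% interval (black), from the fit without solitary replicate 3 (open red diamonds), and the median of all tested genes (dotted line, 0.00). Every black interval includes 0, and the diamonds of asp-1 (-0.35) and cpr-1 (0.43) lie farthest from it.

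The intervals set how large a change these libraries would leave room for. The lowest bound over the 9 genes was -0.57, for cpr-3, and the highest 0.67, for cpr-1, so each of the 9 single-gene intervals lay inside a log2 change of 1 in either direction, the fold threshold of the study's methods. They were narrowest for cpr-6, cpl-1, asp-3 and asp-4 and wider for cpr-1, cpr-3, cpr-4, cpr-5 and asp-1.

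That difference in precision followed the spread between replicates. The within-condition SD of log2 CPM was 0.20 for cpr-1, 0.19 for cpr-3, 0.17 for cpr-4, 0.17 for cpr-5 and 0.18 for asp-1. Each of these values exceeded that of 97.3% to 98.4% of the 3097 tested genes with a mean count of at least 5000, whose median was 0.05. By contrast, the SD was 0.05 for cpr-6 and 0.07 for cpl-1, which exceeded 45.4% and 67.7% of those abundant genes. asp-3 and asp-4 were in between with 0.11 and 0.10 (above 89.3% and 86.3%). Each SD rests on 3 libraries a condition, and no test was made of the difference between the genes.

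For 3 of the variable genes the libraries deviated in the same order within the solitary condition. Set against the mean of the 6 libraries on the log2 scale, solitary replicates 1, 2 and 3 stood at -0.21, -0.35 and 0.10 for cpr-1, at -0.02, -0.26 and 0.12 for cpr-4, and at -0.02, -0.24 and 0.17 for cpr-5. In asp-1 it was replicate 3 that stood lowest (0.29, 0.19 and -0.15), as in asp-4 (0.15, 0.06 and -0.12). cpr-3 was highest of the solitary libraries in replicate 1 (0.39, -0.02 and -0.09), as was cpr-6 on a smaller scale (0.10, 0.02 and 0.00).

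**Figure D3:**
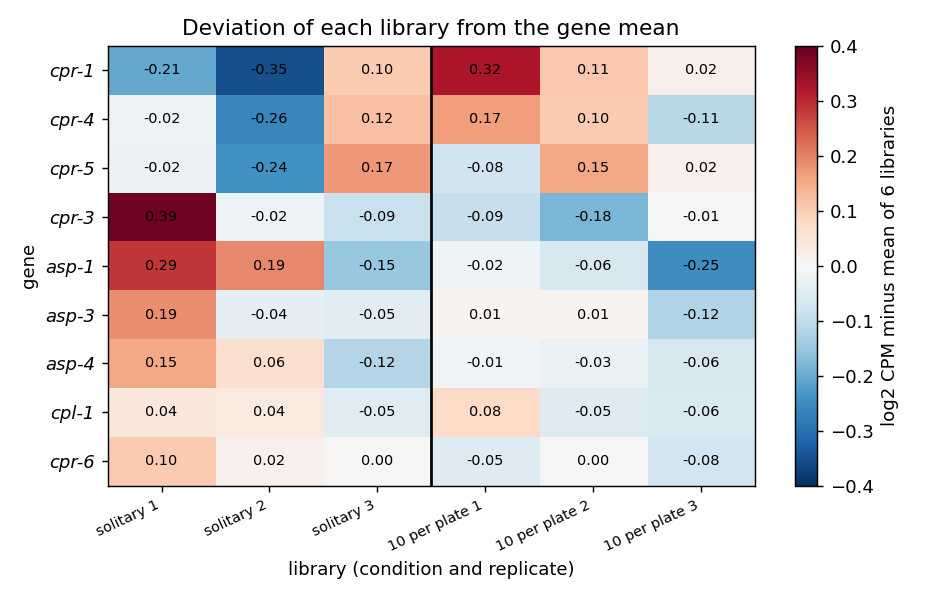
Deviation of log2 CPM of each gene (rows) in each library (columns) from its mean over the 6 libraries, as color and as a number, with solitary libraries left of the black line. cpr-1, cpr-4 and cpr-5 are highest among solitary libraries in replicate 3, where asp-1 and asp-4 are lowest, while the cpl-1 and cpr-6 rows stay between -0.08 and 0.10.

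A ratio of 2 genes within a library does not depend on the scaling of libraries, and it shows the same split of the solitary libraries. There were 0.236 counts of cpr-1 per count of asp-1 in solitary replicate 1 and 0.228 in solitary replicate 2, but 0.396 in solitary replicate 3. The 10-worm libraries held 0.420, 0.374 and 0.399, so solitary replicate 3 lay inside their range and the other solitary libraries below it. The ratio of cpr-4 to asp-1 was 0.403, 0.363 and 0.601 in solitary worms and 0.565, 0.560 and 0.547 in the others. The ratio of cpr-6 to cpl-1 was steady by comparison, between 0.940 and 1.07 over all 6 libraries. The choice of these pairs followed a look at their values, and none was tested.

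Levels of different genes can be compared only per length. Per kilobase of exon, the most abundant members in solitary worms were asp-1 with 967 ± 148 CPM per kilobase, cpl-1 with 935 ± 33.0 and cpr-6 with 929 ± 35.5 (SD, n = 3). They were followed by asp-3 with 558 ± 52.6, cpr-4 with 453 ± 59.5, asp-4 with 355 ± 33.5, cpr-1 with 296 ± 48.7, cpr-5 with 242 ± 34.8 and cpr-3 with 67.1 ± 12.5. The first 3 of this order had ranges that overlapped, as did asp-4 with cpr-1 and cpr-1 with cpr-5, whereas every other neighbor was separated by its libraries.

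In 10-worm populations, cpl-1 came first with 922 ± 50.9 CPM per kilobase, then cpr-6 with 877 ± 24.8 and asp-1 with 826 ± 68.1. cpr-6 overlapped with both, while the lowest library of cpl-1 (889 CPM per kilobase) lay above the highest of asp-1 (879). asp-3 (532 ± 27.7) overlapped with cpr-4 (486 ± 47.9), and cpr-1 (363 ± 40.1) with asp-4 (338 ± 6.13), while cpr-5 (251 ± 20.5) and cpr-3 (58.3 ± 3.56) stood apart below them. The annotated exon of asp-1 holds 1191 nucleotides against a coding length of 1188. With coding length in place of exonic length, asp-1 came after cpl-1 and cpr-6 in solitary worms too. By level per kilobase over both conditions, cpr-3 ranked at 2651 among all 18428 tested genes, and the other members from 118 (cpl-1) to 442 (cpr-5).

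**Figure D4:**
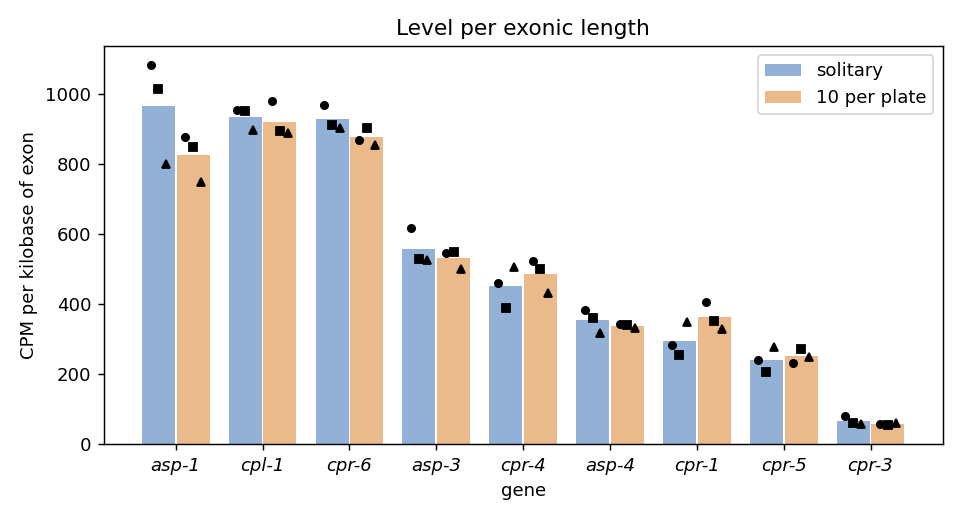
Mean CPM per kilobase of exon (y axis, from 0) of each gene (x axis) in solitary worms (blue bars) and 10-worm populations (orange bars), with single libraries as black marks whose shape gives the replicate. asp-1, cpl-1 and cpr-6 are the 3 highest and overlap in solitary worms, whereas in 10-worm populations all libraries of cpl-1 lie above those of asp-1, and cpr-3 is lowest with 67.1 and 58.3 CPM per kilobase.

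The other members of these gene families also held no call with all 6 libraries in edgeR's quasi-likelihood test. Of 5 further cysteine cathepsin genes (cpr-2, cpr-8, cpr-9, cpz-1 and cpz-2), 0 had an adjusted p under 0.05, and their median log2 fold change was 0.07. An unadjusted p under 0.05 was reached by 1 of the 5, cpz-1, beside 11.9% of all tested genes. cpz-1, which encodes a cathepsin Z that acts in molting, measured 542, 546 and 438 CPM in solitary worms and 417, 415 and 418 CPM in 10-worm populations. All 3 solitary libraries of cpz-1 were above the other 3, with replicate 3 again the lowest of them (log2 fold change -0.29, standard error 0.08, adjusted p = 0.199 in edgeR's quasi-likelihood test). It passed in DESeq2's Wald test (adjusted p = 0.00825, beside 2.28% of all tested genes). At -0.38, it also passed in edgeR's quasi-likelihood test without solitary replicate 3 (adjusted p = 0.000952, beside 1.52% of all tested genes passing as lower). cpr-9 was the most abundant of these genes with 839 ± 67.3 CPM in solitary worms and 879.8 ± 39.0 in the others, and cpz-2 had a log2 fold change of 0.07.

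Of 14 further asp genes, 9 passed the count minimum, and 0 of them had an adjusted p under 0.05. Their median log2 fold change was -0.13, with 7 lower and 2 higher in 10-worm populations, and 3 had an unadjusted p under 0.05 (33.3%, beside 11.9% of all tested genes). asp-12 measured 54.6, 41.3 and 11.4 CPM in solitary worms and 7.82, 12.9 and 8.15 CPM in 10-worm populations. Here too solitary replicates 1 and 2 were high and replicate 3 lay within the other condition (log2 fold change -1.89, standard error 0.69, adjusted p = 0.414 in edgeR's quasi-likelihood test). asp-17 was the 1 gene of the list without overlap, beside 18.3% of all tested genes in either direction and 8.51% with 10-worm populations higher. It measured 6.78 ± 1.20 CPM in solitary worms and 9.25 ± 1.25 in the others (log2 fold change 0.45, standard error 0.15, adjusted p = 0.245 in edgeR's quasi-likelihood test). The abundant genes asp-6 (log2 fold change -0.13), asp-5 (-0.20) and asp-2 (-0.02) lay within the range of the members. Without solitary replicate 3 the median of the 9 genes was -0.22, and 3 of them passed as lower in 10-worm populations in edgeR's quasi-likelihood test, beside 1.52% of all tested genes. These were asp-14 (log2 fold change -1.05, standard error 0.08, adjusted p = 0.000154), asp-8 (-0.65, standard error 0.12, adjusted p = 0.0186) and asp-5 (-0.29, standard error 0.05, adjusted p = 0.0118).

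Cysteine proteases are held in check by inhibitors, of which the cystatin genes cpi-1 and cpi-2 and srp-6, an intracellular serpin that protects cells from necrosis, were examined. 0 of the 3 had an adjusted p under 0.05, while an unadjusted p under 0.05 was reached by 2 of the 3, beside 11.9% of all tested genes. cpi-2 was lower in all 3 libraries of 10-worm populations (182 ± 1.74 CPM in solitary worms, 170.1 ± 5.77 in the others, log2 fold change -0.10, standard error 0.04, adjusted p = 0.363 in edgeR's quasi-likelihood test). cpi-1 had a log2 fold change of -0.23 with conditions that overlapped (adjusted p = 0.324 in edgeR's quasi-likelihood test), and srp-6 of -0.04.

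Of other lysosomal hydrolases, among them lipases, glycosidases and the serine carboxypeptidase-like genes ctsa-2 and pcp-1 to pcp-5, 26 genes were tested, and 0 had an adjusted p under 0.05. Of these, 21 had a higher and 5 a lower point estimate in 10-worm populations, beside 9321 higher and 9107 lower over all tested genes. Their median log2 fold change was 0.15, which was 0.16 once the trend of fold changes with exonic length was removed. An unadjusted p under 0.05 was reached by 8 genes (30.8%, beside 11.9% of all tested genes), each with a higher estimate in 10-worm populations. The lysosomal lipase genes lipl-3 and lipl-6 had log2 fold changes of 0.73 and 1.46 (adjusted p = 0.315 and 0.346 in edgeR's quasi-likelihood test), the latter on 4 counts in each solitary library and 16, 5 and 14 in the others. nuc-1, which encodes the lysosomal DNase II, held 27.6 ± 0.667 CPM in solitary worms and 31.7 ± 3.83 in the others (log2 fold change 0.20, adjusted p = 0.362 in edgeR's quasi-likelihood test). The more abundant lipl-5 and gba-4, a glucocerebrosidase gene, had log2 fold changes of 0.16 and 0.23 with overlapping conditions. Without solitary replicate 3, gba-4 (0.36) and gba-1 (0.41), another glucocerebrosidase gene, passed as higher in 10-worm populations, beside 0.684% of all tested genes (adjusted p = 0.0106 and 0.0380 in edgeR's quasi-likelihood test). In the same fit pcp-2 (-0.43), a gene of the prolylcarboxypeptidase family, passed as lower, beside 1.52% of all tested genes (adjusted p = 0.0484 in that test).

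Genes of the lysosomal membrane (17 tested, median log2 fold change 0.02) and of the V-ATPase, the proton pump that acidifies lysosomes (21 tested, median -0.04), also held 0 genes with an adjusted p under 0.05, and 2 genes each with an unadjusted p under 0.05 (11.8% and 9.52%, beside 11.9% of all tested genes). cup-5, the mucolipin channel gene, measured 127 ± 2.17 CPM in solitary worms and 135 ± 1.95 in the others (log2 fold change 0.08, standard error 0.04, adjusted p = 0.402 in edgeR's quasi-likelihood test). lmp-1, the gene of a LAMP-like membrane protein, had a log2 fold change of -0.03, the cystine transporter gene ctns-1 of -0.02 and the lysine and arginine transporter gene laat-1 of 0.00. The transporter-like gene spin-4 (0.25) and the Batten disease gene homolog cln-3.3 (0.29) were higher in all 3 libraries of 10-worm populations (adjusted p = 0.323 and 0.473 in edgeR's quasi-likelihood test). spin-3 (-0.32) and glo-1 (-0.23), a Rab gene of gut granule formation, were lower in all 3 (adjusted p = 0.560 and 0.527). Of the 17 membrane genes, 4 had 10-worm populations higher without overlap and 2 had them lower, beside 8.51% and 9.83% of all tested genes. spin-2, a relative of spin-4, passed as higher without solitary replicate 3, beside 0.684% of all tested genes (0.74, adjusted p = 0.0398 in edgeR's quasi-likelihood test). Among pump subunits, vha-17 (-0.09) and vha-10 (-0.16) were lower in all 3 libraries of 10-worm populations, and vha-7 was higher by 0.11 with overlapping conditions (adjusted p from 0.383 to 0.449 in edgeR's quasi-likelihood test). The most abundant pump genes per kilobase, vha-1 (-0.07), vha-2 (-0.06) and vha-9 (-0.10), had lower point estimates in 10-worm populations (adjusted p from 0.454 to 0.633). For the V-ATPase list, 4 of 21 genes had conditions that did not overlap, all lower in 10-worm populations, beside 9.83% of all tested genes in that direction. Point estimates were lower for 19 and higher for 2 of the 21 pump genes, and lower for 6 and higher for 11 of the 17 membrane genes. Of all 18428 tested genes, 9107 were lower and 9321 higher.

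**Figure D5:**
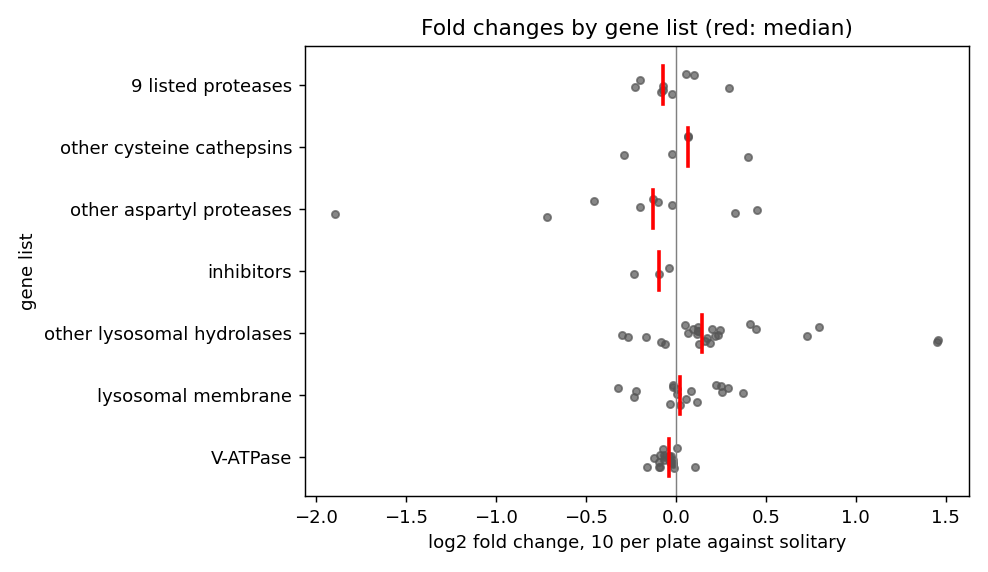
Log2 fold change (x axis, 10-worm populations against solitary worms) of every tested gene of 7 lists (y axis), 1 point a gene, with the median of each list in red. The medians run from -0.13 (other aspartyl proteases) to 0.15 (other lysosomal hydrolases), and the point farthest left is asp-12 at -1.89.

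Markers of the intestine were present in every library (ges-1, elt-2, elt-7, ifb-2, act-5, pept-1 and nhx-2, median log2 fold change 0.10). Of these, 0 of 7 had an adjusted p under 0.05, beside 0.239% of all tested genes. Their summed level ran from 394 to 450.1 CPM in solitary worms and from 398 to 421 in 10-worm populations, with the lowest value of all in solitary replicate 3. Most of this sum was act-5, at 273, 256 and 214 CPM in solitary worms and 208, 237 and 218 in the others. By contrast, ges-1, elt-2, elt-7 and nhx-2 had their highest solitary value in replicate 3. Of the 7, 5 had higher point estimates in 10-worm populations. The gut esterase gene ges-1 was higher in all 3 libraries of 10-worm populations, beside 8.51% of all tested genes (log2 fold change 0.15, adjusted p = 0.343 in edgeR's quasi-likelihood test). It was the 1 intestinal marker with an unadjusted p under 0.05 (14.3% of the list, beside 11.9% of all tested genes). Without solitary replicate 3, act-5, the intestinal actin gene, passed as lower, beside 1.52% of all tested genes (-0.26 against -0.16 with all libraries, adjusted p = 0.0414 in edgeR's quasi-likelihood test). Markers of other tissues were 29 genes in 6 lists for body wall muscle, pharynx, hypodermis, neurons, germline and coelomocytes. They held 0 genes with an adjusted p under 0.05 in edgeR's quasi-likelihood test with all 6 libraries, beside 0.239% of all tested genes. The troponin gene unc-27 and the cuticle collagen gene col-19 passed in DESeq2's Wald test (adjusted p = 0.00123 and 0.0227), both lower in 10-worm populations, beside 2.28% of all tested genes that passed in either direction. In muscle, myo-3 (0.13) and unc-22 (0.09) had higher estimates in 10-worm populations (adjusted p = 0.303 and 0.451 in edgeR's quasi-likelihood test). lev-11 (-0.13) and unc-15 (-0.04) had lower ones (adjusted p = 0.346 and 0.864 in that test). An unadjusted p under 0.05 was reached by 3 of the 5 muscle markers, 1 higher and 2 lower (60%, beside 11.9% of all tested genes). The collagen gene sqt-3 (0.86, standard error 0.74, adjusted p = 0.741 in that test) measured 18.5, 18.2 and 2.98 CPM in solitary worms and 21.3, 19.9 and 30.6 CPM in 10-worm populations. Solitary replicate 3 was the lowest library of sqt-3. The median of the 5 hypodermis markers was 0.15 with all 6 libraries, which was the value of dpy-13 (standard error 2.03), and -0.35 without solitary replicate 3. What moved this median was not tested. unc-27 also passed as lower without solitary replicate 3 (adjusted p = 0.0181 in edgeR's quasi-likelihood test), beside 1.52% of all tested genes. The summed levels of the 6 lists overlapped between conditions, except in body wall muscle (1214 to 1331 CPM in solitary worms, 1152 to 1208 in the others). Of the 5 muscle markers in this sum, 1 was lower without overlap and 1 higher, beside 9.83% and 8.51% of all tested genes. The lower one was unc-27 (410, 392 and 364 CPM in solitary worms, 292, 340 and 316 in 10-worm populations), and the higher one was myo-3. Among hypodermis markers, rol-6 held 135 counts in solitary replicate 2 and 154 in replicate 3 of the 10-worm populations, against 1 to 4 in the other libraries. dpy-13 held 320 and 359 counts in those same libraries, against 4 to 16 in the others. The coelomocyte markers, whose defining genes are weakly expressed, summed to 1.66 to 1.86 CPM in solitary worms and 1.85 to 2.34 in the others. Whether the share of any tissue had a part in the levels of the proteases was not tested.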

How the data were processed

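PolyA RNA of whole worms was sequenced as paired-end reads. According to the paper's methods and the submitters' processing notes, the authors trimmed reads with Trimmomatic 0.36, aligned them with STAR 2.5.2b to WBcel235 and counted uniquely placed reads on exons per gene with featureCounts of Subread 1.5.2. The annotation release and the strand setting were not given in the sources used here. The deposited counts, not normalized, were the only values analysed, and a second table, the same counts divided by one factor per library, was not used.

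Genes with a sum of at least 10 counts were compared with edgeR 4.0.16 in R 4.3.3 (TMM, robust quasi-likelihood F test of 10-worm populations against solitary worms, Benjamini-Hochberg adjustment over 18428 genes). The standard error was taken as the size of the log2 fold change over the square root of F, and 95% intervals use the t distribution at the total degrees of freedom of the fit. The thresholds, adjusted p under 0.05 and, as a second criterion, absolute log2 fold change above 1, follow the paper, whose tool, DESeq2 (1.42.0 here), was run as an alternative, with other scalings and filters, a replicate block, each library left out, and removal of the length trend (lowess, span 0.3, fitted on genes with a mean count of at least 100). Replicates are biological by label, but separate cultures are not described further. Coordinates and lengths came from the Ensembl annotation of WBcel235, and 43798 of 46756 identifiers matched a symbol. The members and gene lists were chosen with earlier results of these data known. Within a list, up to 3 genes with the smallest unadjusted p and up to 3 with the highest level per kilobase were named. Others that passed in DESeq2 or without solitary replicate 3, and some tissue markers, were chosen after their values were seen. The edgeR and DESeq2 fits were also run on simulated data. These held larger changes than those of the listed proteases and no outlying library, and no result here rests on them.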

Additional observations from a re-analysis of the deposited data

How the results depend on the processing

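The count of protease genes with an adjusted p under 0.05 was 0 with all 6 libraries and remained 0 with DESeq2's size factors, total counts, no count minimum, filterByExpr, DESeq2's Wald test, the replicate block, removal of the length trend and the added fold threshold. With each library left out in turn it ran from 0 to 1, the 1 being asp-1 without solitary replicate 3. Their median log2 fold change moved between -0.10 and -0.01 over these fits. Over all genes the count was 44, against 7 with total counts, 745 without a count minimum, 17 with filterByExpr, 421 in DESeq2, 24 with the replicate block, 0 with the length trend removed (1263 with an unadjusted p under 0.05), and 0 to 407 with single libraries left out, the 407 being without solitary replicate 3. The cause was not tested.

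Among alternatives with all 6 libraries, the log2 fold change turned direction only for cpl-1, to 0.0064 with total counts and to 0.0073 with the length trend removed. With single libraries left out it turned for cpl-1 (from -0.068 to 0.0038 over these fits), cpr-5 (from -0.049 to 0.16) and asp-3 (from -0.11 to 0.0074). The smallest adjusted p of a protease gene with all 6 libraries was 0.162, for asp-1 with the replicate block (unadjusted p = 0.00162).

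Whether libraries of the same replicate number belong together cannot be told from these values. Deviations from the condition means correlated between same-numbered libraries with Pearson's r of 0.17, -0.29 and -0.29 over 10491 genes, and of the solitary libraries replicate 1 alone correlated best with its own number.

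Counting error was at most 1.497% for any value of the 9 genes, and no test of depth was made.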

Other observations

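Genes of transcription factors and cofactors that act in intestinal or lysosomal gene expression (elt-2, elt-4, elt-7, pha-4, hlh-30, pqm-1, skn-1, daf-16 and lin-35) had a median log2 fold change of 0.22. Point estimates were higher for 8 and lower for 1 in 10-worm populations, beside 9321 higher and 9107 lower over all tested genes. However, 0 of the 9 had an adjusted p under 0.05 in edgeR's quasi-likelihood test. An unadjusted p under 0.05 was reached by 3 of them (33.3%, beside 11.9% of all tested genes). lin-35, the retinoblastoma homolog, was higher in all 3 libraries of 10-worm populations (216 ± 3.03 CPM against 195 ± 4.17, log2 fold change 0.15, adjusted p = 0.150 in edgeR's quasi-likelihood test). It passed in DESeq2's Wald test (adjusted p = 0.0308, beside 2.28% of all tested genes). With daf-16, it also passed as higher in edgeR's quasi-likelihood test without solitary replicate 3, beside 0.684% of all tested genes (adjusted p = 0.0475 for lin-35 and 0.0181 for daf-16, which was 0.31 there). daf-16, the FOXO gene of the insulin pathway, and the FOXA gene pha-4 had log2 fold changes of 0.22 and 0.32 with overlapping conditions, and the Nrf-like gene skn-1, the most abundant of the list per kilobase, of -0.01.

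The mean of the 9 proteases, each centered on its own mean, deviated on the log2 scale by 0.10, -0.07 and -0.01 in the solitary libraries and by 0.04, 0.01 and -0.07 in the others. Of 10479 genes with a mean count of at least 100, those whose log2 CPM followed this profile most closely were nhr-130 (Pearson's r 0.981 over 6 libraries), fbxa-65 (0.968), nrfl-1 (0.956), the intestinal peptide transporter gene pept-1 (0.951) and C49C3.9 (0.946). With 6 points and this many genes, high values of r are easily found, and the libraries share their scaling, so these names are a description only.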
